A study of Mus musculus with 20 samples.

Results

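Microtubule-associated proteins were examined in N2A cells, a mouse neuroblastoma line of neuron-like character, after exposure to the pulsed laser light used for stimulated Raman scattering (SRS) microscopy. The set holds 10 genes of the 34083 with a matched transcript, namely the MAP7 family (Map7, Map7d1, Map7d2 and Map7d3), Map1a, Map1b, Map2, Map4, Mapt (tau) and Dcx (doublecortin). The genes were chosen by measured transcript shares, because a Map7d2 transcript, Map7d2-201, took a smaller share of its gene in all 4 exposed groups of batch 1 while the sum over all Map7d2 transcripts did not fall. The Map7d2 values of batch 1 against its controls are therefore a description without a test. The pattern of the choice was set by batch 1 alone, but shares of batch 2 had been computed when it was made.

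Polyadenylated RNA was measured in 20 libraries of 7 groups, all lysed 1 h after exposure. Batch 1 held 3 libraries each of unexposed negative controls (NC) and of 4 settings with a single laser, of which I0-E0 had 20 mW and 2 µs per pixel, I0-E2 had 20 mW and 10 µs per pixel with 5 times the fluency of I0-E0, I0-E4 had 20 mW and 20 µs per pixel with 10 times that fluency, and I2-E2 had 100 mW and 2 µs per pixel with 5 times that fluency. Batch 2 held 2 NC libraries and 3 libraries of I3-E3-SRS, in which both SRS lasers scanned each field once through another objective, at 65 mW and 2 µs per pixel, a setting close to visible burning. All groups were wells of the same line with no genetic change, the labels do not say whether replicates came from separate cultures, and p-values therefore measure the spread between these libraries, which may be technical.

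The libraries held between 5473588 and 12698770 estimated reads, and 14 of 16 sympathetic and neuroblastoma markers had at least 10 reads in every library, at a summed 3426 to 3791 CPM (counts scaled to the library total), against at most 17.7 CPM for any of the 6 other cell type lists. In I0-E0 replicate 3, 20042 genes had at least 1 read, against 15586 to 17226 in the other 19 libraries. Batch 2 NC replicate 1 had the fewest reads and values per length of several genes that stood apart from the other libraries although its CPM did not, so these values are given with that library named.

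Microtubule-associated proteins bind along the microtubule lattice, set how stable and how bundled microtubules are, and govern which motors can walk on them. MAP7 family proteins bind the lattice with an N-terminal region and the motor kinesin-1 with a C-terminal region, and so recruit kinesin-1 to its track. Map2 marks dendrites and tau marks axons in mature neurons, Map1a and Map1b are large neuronal proteins cut into heavy and light chains, Map4 is the broadly expressed member, and doublecortin belongs to migrating young neurons.

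Map7d2 (ENSMUSG00000041020.14) lies on the plus strand of the X chromosome at chrX:159414572-159498757 in GRCm38 and had 5 transcripts in the files, all annotated as protein-coding. Map7d2-203 is the longest, with 17 exons, 3670 bases and 2343 coding bases. Its annotation carries a support level of 5, the weakest grade, against 1, the strongest, for the other transcripts. Map7d2-201 has 13 exons, 3087 bases and 1791 coding bases, and starts 44553 bases further downstream, at chrX:159459125. Its first exon holds 253 untranslated bases that are not exonic in Map7d2-203 and continues into the fourth exon of that transcript. Map7d2-202 and Map7d2-205 use the same alternative first exon, and Map7d2-204 starts inside the third exon of Map7d2-203 and is annotated with an incomplete 3′ end after 1312 bases.

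The coding parts of the Map7d2 transcripts read in the same frame. The start codon of Map7d2-201 lies 453 coding bases (151 codons) into Map7d2-203, after 3 upstream exons that Map7d2-201 lacks. The other coding difference is a cassette exon of 99 bases (33 codons) that only Map7d2-203 contains, and removing both stretches from the coding part of Map7d2-203 leaves the 1791 bases of Map7d2-201. Map7d2-204 has the start codon of Map7d2-201 and also skips the cassette exon, and its 1206 coding bases equal the first 1206 of Map7d2-201. Map7d2-201 and Map7d2-204 thus differ in their leaders and in the part that is missing from the 3′ end of the Map7d2-204 annotation.

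**Figure D1:**
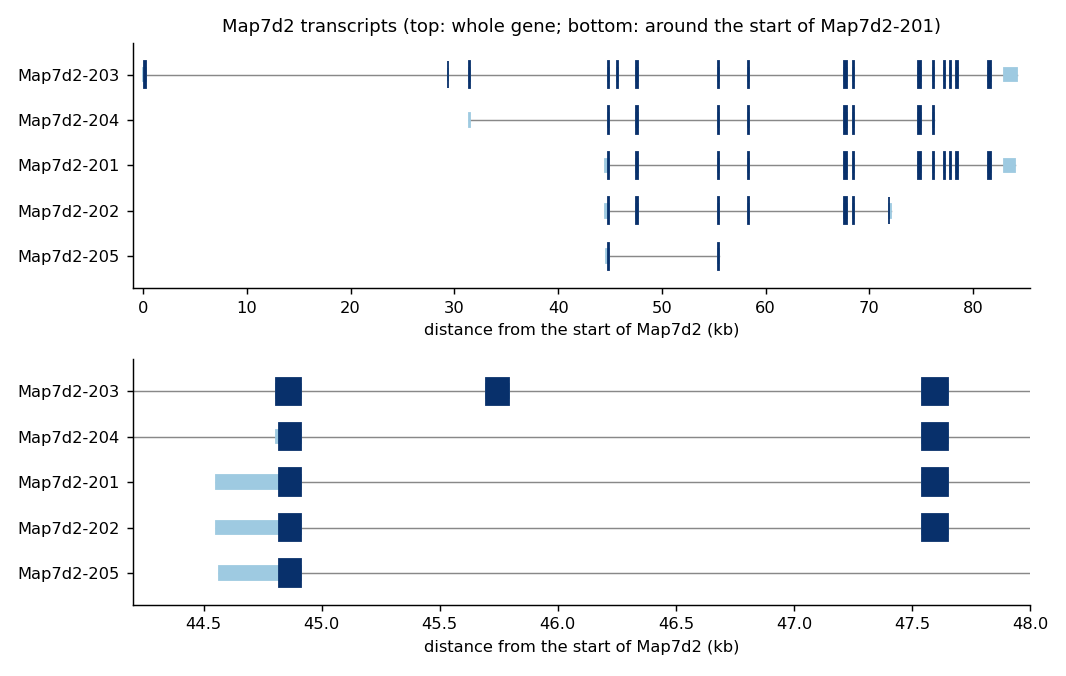
Exons of the 5 Map7d2 transcripts against distance from the gene start in kb, with coding parts as tall dark boxes, untranslated parts as low light boxes and introns as lines. The upper panel shows the whole gene and the lower panel the region around the start of Map7d2-201, where its longer first exon and the cassette exon found only in Map7d2-203 can be seen.

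The sequences that tell these transcripts apart are given 5′ to 3′ from the GENCODE vM21 transcripts. In the first, capitals mark the cassette exon of Map7d2-203 (chrX:159460267-159460365, 99 bases) between the 20 bases on either side. The next is the exon junction that Map7d2-201 and Map7d2-204 have in its place. The remaining pair are the first 60 coding bases from the start codon of Map7d2-203 (chrX:159414697-159414756) and from that of Map7d2-201 (chrX:159459393-159459452), with the start codon in capitals.
Map7d2-203 cassette exon: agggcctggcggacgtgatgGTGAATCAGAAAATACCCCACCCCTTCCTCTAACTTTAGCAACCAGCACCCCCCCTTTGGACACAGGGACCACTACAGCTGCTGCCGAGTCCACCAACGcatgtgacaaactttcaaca
Map7d2-201 junction without it: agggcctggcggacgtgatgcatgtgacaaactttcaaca
Map7d2-203 first coding bases: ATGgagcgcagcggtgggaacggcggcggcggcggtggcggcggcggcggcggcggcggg
Map7d2-201 first coding bases: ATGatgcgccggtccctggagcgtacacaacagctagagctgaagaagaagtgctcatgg

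The upstream and downstream starts of Map7d2 also differ in the DNA around them. The windows of 300 bases from 250 before to 50 after each start, as given by RefSeq for GRCm38.p6, are shown with each CG dinucleotide in capitals, because the values below set transcripts of these starts against each other.
Map7d2-203 start: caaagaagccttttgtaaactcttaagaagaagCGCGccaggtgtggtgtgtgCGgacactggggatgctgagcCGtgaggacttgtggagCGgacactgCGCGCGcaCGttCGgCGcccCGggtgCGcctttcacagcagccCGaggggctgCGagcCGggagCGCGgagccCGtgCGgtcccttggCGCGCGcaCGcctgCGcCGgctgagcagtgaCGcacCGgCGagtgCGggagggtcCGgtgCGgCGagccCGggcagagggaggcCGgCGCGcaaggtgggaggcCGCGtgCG
Map7d2-201 start: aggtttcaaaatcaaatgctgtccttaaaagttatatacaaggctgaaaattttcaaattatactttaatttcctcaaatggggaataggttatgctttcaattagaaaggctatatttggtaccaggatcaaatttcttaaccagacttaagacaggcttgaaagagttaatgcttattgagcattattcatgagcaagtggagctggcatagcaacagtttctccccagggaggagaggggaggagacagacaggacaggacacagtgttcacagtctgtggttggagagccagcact
The window of Map7d2-203 (chrX:159414322-159414621) holds 40 CG and is 71.3% G or C, and 3.91% of 32851 RefSeq windows of this length hold at least as many CG. The window of Map7d2-201 (chrX:159458875-159459174) holds 0 CG and is 40% G or C. Neither window contains TATAAA on either strand, which 13.6% of the 32851 windows do.

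The gene sum of Map7d2 was similar in all 20 libraries. It was 161, 159 and 175 CPM in the 3 NC libraries of batch 1. The I0-E0 libraries had 156, 164 and 167 CPM, and the I0-E2 libraries had 155, 158 and 165 CPM. The I0-E4 libraries had 183, 181 and 158 CPM, and the I2-E2 libraries had 193, 201 and 153 CPM. Each exposed group overlapped with NC. In batch 2 the NC libraries had 160 and 175 CPM and the I3-E3-SRS libraries 166, 155 and 165 CPM, which also overlapped.

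The share of Map7d2-201 differed between groups. In this description a share is the TPM of a transcript (a unit in which estimated reads are corrected for effective length and scaled to the library) as a percentage of the summed TPM of its gene. Map7d2-201 took 22.2%, 20.6% and 21.8% in the batch 1 NC libraries, from 354, 309 and 297 estimated reads. It took 9.24%, 7.50% and 14.9% in I0-E0, and 12.2%, 13.3% and 10.7% in I0-E2. It took 6.80%, 6.78% and 5.89% in I0-E4, and 4.75%, 3.31% and 3.66% in I2-E2. All 12 exposed libraries lay below all 3 NC libraries, which is the pattern for which the gene was chosen, and none of the I0-E4 and I2-E2 libraries reached the lowest of I0-E0 and I0-E2.

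As group means, Map7d2-201 was at 21.5% ± 0.83 (SD, n = 3) in NC and at 10.5% ± 3.85 in I0-E0, 12.1% ± 1.30 in I0-E2, 6.49% ± 0.52 in I0-E4 and 3.91% ± 0.75 in I2-E2 (n = 3 each). The differences from NC were -11.0, -9.49, -15.1 and -17.6 percentage points. Without I0-E0 replicate 3, the library with the most detected genes and the highest exposed share, the I0-E0 difference was -13.2 points. As a level per length, in CPM per kb of effective length, Map7d2-201 stood at 14.6 ± 1.48 in NC, at 6.79 ± 2.39 in I0-E0, 7.73 ± 0.48 in I0-E2 and 4.49 ± 0.72 in I0-E4, and at 2.88 ± 0.71 in I2-E2. The order of the groups was thus that of the shares.

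The estimated reads behind a share were few enough for counting error to matter. As a share of the estimated reads of Map7d2, the lowest NC value was 23.6%, with a 95% Wilson interval of 21.3% to 25.9%, and the highest exposed value was 16.4%, with an interval of 14.6% to 18.5%. These intervals give the counting precision only, not the error of assigning reads among transcripts, and are no test of the difference. No word of 31 bases in Map7d2-201 or Map7d2-204 was absent from all other Map7d2 transcripts, whereas 774 of the 3640 words of Map7d2-203 were. The estimate for Map7d2-201 therefore rested on reads that each fit at least 1 other transcript.

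Map7d2-203, with the upstream start and the cassette exon, was higher where Map7d2-201 was lower. It was at 38.7%, 44.9% and 38.4% in NC, at 49.96%, 52.7% and 52.4% in I0-E0, and at 48.6%, 50.9% and 47.7% in I0-E2. It was at 51.6%, 57.6% and 56.7% in I0-E4 and at 55.5%, 52.7% and 57.0% in I2-E2. All 12 exposed libraries lay above all 3 NC libraries. The group means were 40.7% ± 3.66 in NC against 51.7% ± 1.52, 49.1% ± 1.64, 55.3% ± 3.23 and 55.1% ± 2.20, in the order of groups above. Shares of a gene sum to 100%, so the higher Map7d2-203 and the lower Map7d2-201 are not separate results.

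Map7d2-204 stayed between 32.6% and 43.1% in all 15 libraries of batch 1, and each exposed group overlapped with NC. Its group means were 36.5% ± 3.41 in NC and 36.7%, 38.1%, 37.3% and 39.6% in the exposed groups, from I0-E0 to I2-E2. Map7d2-202 and Map7d2-205 were minor, with mean shares of at most 1.17% and 0.83% in any group. The transcripts that reach the last exon of the gene, Map7d2-201 and Map7d2-203, together held 62.2% ± 2.88 in NC and 62.2%, 61.1%, 61.8% and 59.0% in the exposed groups. In these estimates, which rest partly on reads shared between transcripts, the shift lay within this pair, from the downstream to the upstream start.

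**Figure D2:**
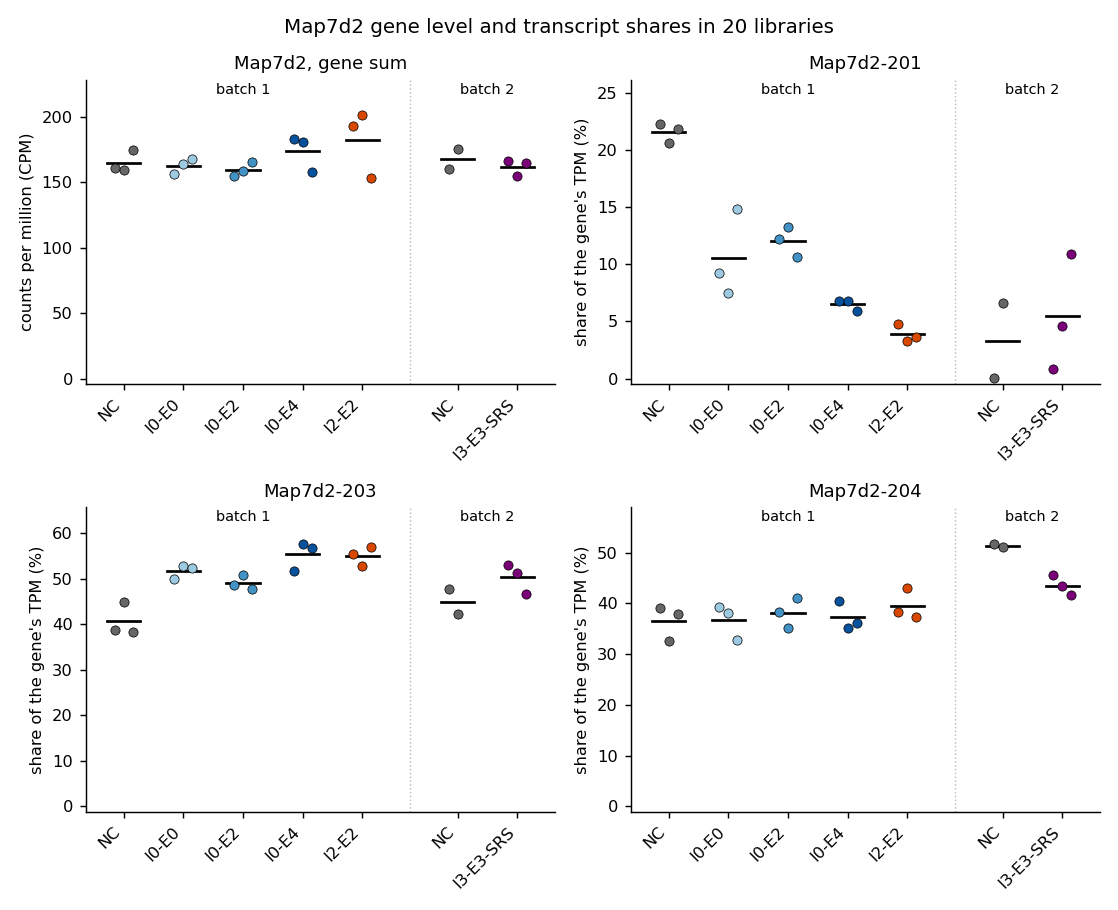
Map7d2 in each of the 20 libraries, as the gene sum in CPM and as the shares of Map7d2-201, Map7d2-203 and Map7d2-204 in percent of the gene's TPM, by group. Points are libraries, bars are group means and the dotted line divides the batches, and the Map7d2-201 share of the batch 1 NC libraries (20.6% to 22.2%) stands above all other libraries while the gene sums overlap.

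The share of Map7d2-201 was set against all transcripts above a minimum share and a minimum of gene reads. Both minimums were taken in batch 1, and abundance was not matched. Of 26384 transcripts with a mean share of at least 5% in a gene with a mean of at least 100 reads, 71 (0.269%) had all 12 exposed libraries of batch 1 below all 3 NC libraries, and 39 (0.148%) had them above. Of the 29 such transcripts of the 10 genes, 1 (Map7d2-201) was below and 1 (Map7d2-203) above. By the size of the mean difference Map7d2-201 ranked 16 among the 71, and the largest was that of Osgepl1-203 at -30.2 points. Within a single group, all 3 libraries lay below NC for 4.61% of the 26384 transcripts in I0-E0, 4.6% in I0-E2, 4.97% in I0-E4 and 5.1% in I2-E2, and above NC for 4.48%, 4.49%, 4.61% and 4.9%. The rule itself used these contrasts, so nothing is read from the counts.

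At matched fluency, I2-E2 had 5 times the power and a shorter dwell time than I0-E2, and the libraries of both groups were among those that led to the choice of Map7d2, so the Map7d2 values here are a description without a test. The share of Map7d2-201 was 3.91% in I2-E2 against 12.1% in I0-E2, a difference of -8.15 points with no overlap, as in 5.37% of the 26384 transcripts. Map7d2-203 was 6.01 points higher in I2-E2 without overlap, as in 5.06% of the transcripts, and Map7d2-204 differed by 1.44 points with overlap. Nothing is read from these shares of transcripts.

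The batch 2 libraries, which did not set the pattern of the choice, did not show a lower share of Map7d2-201 after exposure. It took 0.00818% and 6.59% in the NC libraries, from 0 (rounded) and 132 estimated reads. It took 0.814%, 4.61% and 10.9% in I3-E3-SRS, from 14, 91 and 270 reads. The groups overlapped between 0.814% and 6.59%, the lowest library was an NC library and the highest an I3-E3-SRS library. The difference was 2.15 points upward (exact two-sided permutation test, p = 0.8, smallest possible p 0.1), the test of transcript usage across all genes, which asks whether the transcripts of a gene change by unequal amounts, gave an adjusted p of 0.971 (edgeR's diffSpliceDGE, 2.04% of 7169 genes called), and without NC replicate 1 the difference was -1.14 points. Without NC replicate 2 it was 5.44 points, and each of these differences rested on a single NC library.

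For batch 2 NC replicate 1, the 0 reads of Map7d2-201 among 852 of Map7d2 allow a share of the reads of up to 0.352%. The mean share in the batch 2 NC libraries was 3.30%, so a fall of the size seen in batch 1 (-9.49 points or more) could not occur there. The batch 2 comparison therefore cannot decide whether the batch 1 pattern recurs. Map7d2-203 took 47.6% and 42.3% in NC and 52.9%, 51.2% and 46.7% in I3-E3-SRS (p = 0.4 in the exact permutation test). Map7d2-204 took 51.7% and 51.2% in NC and 45.5%, 43.5% and 41.6% in I3-E3-SRS. This was 7.88 points lower on average without overlap, as in 8.24% of the 26384 transcripts (exact permutation test, p = 0.2, the smallest possible).

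Unexposed cells of the batches also differed in the share of Map7d2-201. The batch 1 NC libraries lay at 20.6% to 22.2% and the batch 2 NC libraries at 0.00818% and 6.59%, inside or below the range of the exposed libraries of batch 1 (3.31% to 14.9%). The gene sum of Map7d2 did not separate these controls, at 165 ± 8.69 CPM (SD, n = 3) and 168 ± 10.6 CPM (n = 2). Median length minus effective length, which follows the fragment lengths of a library, was 192 to 219 bases in batch 1 and 222 to 254 bases in batch 2. Its part in the share of Map7d2-201 was not tested, and batch and preparation cannot be told apart here.

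Levels of the 10 genes could be ordered per length in batch 1, in CPM per kb of effective length. Map1b, which stabilises microtubules in growing axons, was the most abundant, with a mean of 208 and a range of 185 to 233 over 15 libraries. Map7d2 followed at 67.9 (61.3 to 83.4), then tau at 57.4 (52.3 to 63.8) and Map4 at 55.3 (44.5 to 72.1). The ranges of these 3 overlapped, although Map7d2 exceeded tau in 14 of 15 libraries and tau exceeded Map4 in 9 of 15.

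The lower part of the order held in every library of batch 1 on this measure. Map7d1, the broadly expressed MAP7 relative, stood at 33.3 (28.4 to 42.2), Map2 at 18.8 (14.1 to 25.1) and Map1a at 10.4 (8.68 to 13.0) CPM per kb. None of these ranges overlapped with its neighbour's. The level sums over transcripts and weighs short ones up. Map4-207 (442 bases) held group means of 35.1% to 41.6% of the Map4 TPM in batch 1 from 19 to 52 reads a library. Map2-218 (546 bases) held 24.1% to 35.8% of the Map2 TPM from 6 to 25 reads. The order without such transcripts was not tested. In summed batch 1 reads without length correction, Map1a (11153) stood above Map7d1 (9873) and Map2 (7089). Map7, the founding member of its family, had 0 to 4 reads per library in batch 1 and 0 to 1 in batch 2, Map7d3 had 0 to 1 and 0, and doublecortin had 0 to 9 and 1 to 9. These 3 genes fell below the filter on low counts, and no comparison was made for them. Of the MAP7 family, N2A cells thus had more than 4 reads a library for Map7d2 and Map7d1 alone.

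**Figure D3:**
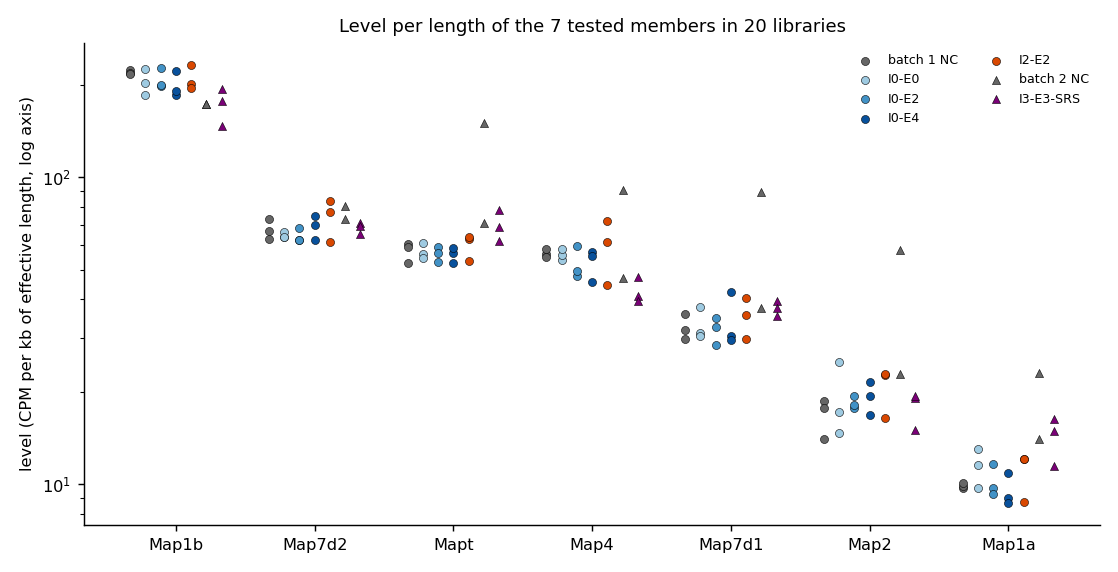
Level of the 7 tested genes in CPM per kb of effective length, on a log axis, with a point for each library (circles for batch 1, triangles for batch 2). In batch 1, Map1b lies at 185 to 233 above all others, and in batch 2 a grey triangle, NC replicate 1, stands high for tau, Map4, Map7d1, Map2 and Map1a.

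In batch 2 the order per length was blurred by NC replicate 1, in which tau reached 150 against 62.1 to 78.0 in the other 4 libraries and Map4 reached 91.1 against 39.5 to 47.2. In CPM, which does not use effective length, tau was at 200 and 210 in the NC libraries and between 180 and 196 in I3-E3-SRS. Map7d2 remained near its batch 1 level per length, at 65.3 to 80.7.

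No gene sum of the 7 tested genes passed the test in any comparison. The edgeR quasi-likelihood test with Benjamini-Hochberg adjustment called 0 of 12289 genes (0%) in each batch 1 contrast and 0 of 12052 (0%) in batch 2, and so 0 of the 7. At an unadjusted p below 0.05 it had 413 genes in I0-E0, 411 in I0-E2, 971 in I0-E4, 883 in I2-E2 and 486 in I3-E3-SRS, each against NC, and 643 in I2-E2 against I0-E2, and DESeq2 called 0 to 15 genes. Without batch 2 NC replicate 2, 671 genes were called in I3-E3-SRS, none of them among the 7.

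The estimates bound how far the gene sums could have moved. Map1b was 0.10, 0.08, 0.14 and 0.07 lower than NC on the log2 scale from I0-E0 through to I2-E2, with intervals from -0.32 to 0.10, and its difference was 0 at 2 decimals in I3-E3-SRS (interval -0.25 to 0.24). Map7d2 had log2 fold changes of -0.02, -0.04, 0.08 and 0.14 in the same order and -0.05 in I3-E3-SRS (interval -0.21 to 0.10). Tau differed by -0.12 in I3-E3-SRS (-0.27 to 0.03) and by at most 0.06 in batch 1. Map7d1 had 0.11, 0.04, 0.14 and 0.09 in batch 1 and 0.01 in I3-E3-SRS.

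Map1a was at -0.13 (-0.29 to 0.03) in I0-E4 and within 0.07 of 0 elsewhere, Map2 lay between -0.10 and 0.06 against NC, and Map4 between -0.09 and -0.02. The median log2 fold change of the 7 genes was -0.03 in I0-E0, -0.04 in I0-E2, -0.01 in I0-E4, 0.03 in I2-E2 and -0.02 in I3-E3-SRS, while that of all genes tested lay within 0.01 of 0. The batch 1 contrasts with NC share their 3 control libraries, so their estimates are not independent of each other.

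**Figure D4:**
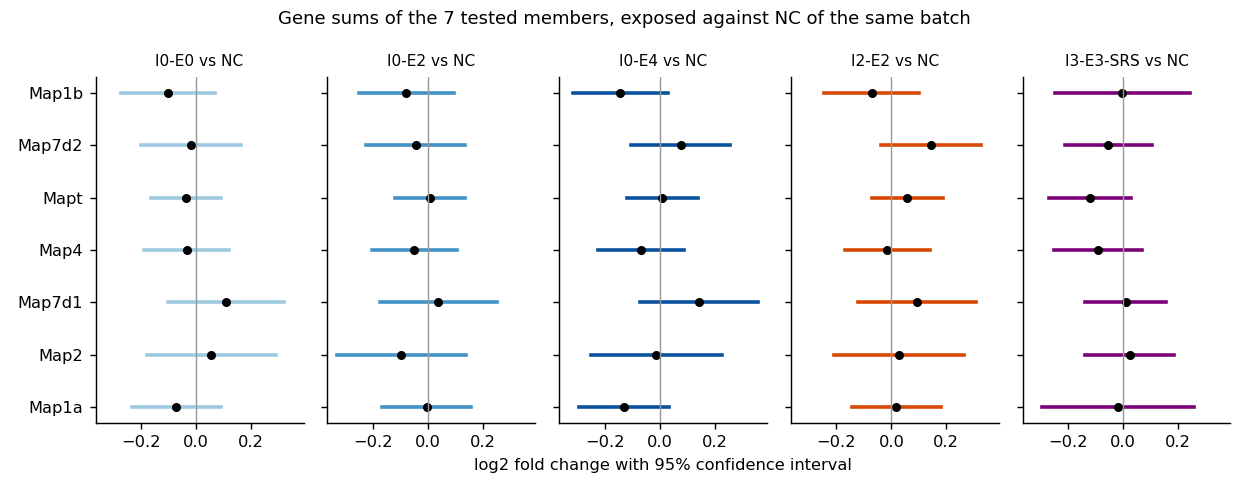
Log2 fold change of the gene sums of the 7 tested genes in each exposed group against NC of the same batch (points) with 95% confidence intervals (bars). All intervals include 0, and the estimates lie between -0.14 and 0.14.

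The other genes differed in how many transcripts shared their expression. Map1b had a single transcript in the files. Map1a was led by Map1a-202, with 81.3% ± 4.98 in batch 1 NC and 69.1% to 79.0% as the mean of the exposed groups, ahead of Map1a-201 at 13.3% to 18.7%. Tau was led by Mapt-204, with group means from 50.2% to 53.5% in batch 1, and Map7d1 was divided between Map7d1-202 (32.3% to 35.2%), Map7d1-201 (21.8% to 36.5%) and Map7d1-204 (18.8% to 26.6%).

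Several large shares rested on few reads, because a share of TPM weighs a short transcript up. Map4-207, a transcript of 442 bases without a coding part, held group means of 35.1% to 41.6% of the Map4 TPM in batch 1 from 19 to 52 reads a library, against 9.80% to 16.1% in the I3-E3-SRS libraries from 7 to 16 reads. In the batch 2 NC libraries it held 34.9% and 11.6%, so that group overlapped with I3-E3-SRS. Map1a-204, of 411 bases, had 0 reads in the 3 NC libraries of batch 1 and at most 5 in any exposed library there, yet reached a mean share of 16.5% in I0-E0. Map2-218, of 546 bases, had mean shares of 24.1% to 35.8% in batch 1 from 6 to 25 reads.

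Map2-201 showed the widest differences among long transcripts of the other genes, and they went with a wide spread. It took 35.5%, 29.8% and 49.2% in batch 1 NC and 0.678%, 21.9% and 0.0789% in I0-E4, from 4, 128 and 1 reads, all below NC, as in 4.97% of the 26384 transcripts. It took 4.66%, 32.0% and 39.5% in I0-E0, which overlapped with NC, as did I0-E2 and I2-E2. The test of transcript usage gave Map2 an adjusted p of 0.528 in I0-E4 against NC (edgeR's diffSpliceDGE; 0.347% of genes called), and 0.0188 without I0-E4 replicate 2. Among Map7d1, Map1a, Map2, Map4 and tau the test called 0 of 5 genes in each of the 6 comparisons (backgrounds against NC of 0.0533% in I0-E0, 0.04% in I0-E2 and 0.4% in I2-E2, and 0.28% in I2-E2 against I0-E2), with a lowest adjusted p of 0.528, and limma diffSplice also called 0.

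**Figure D5:**
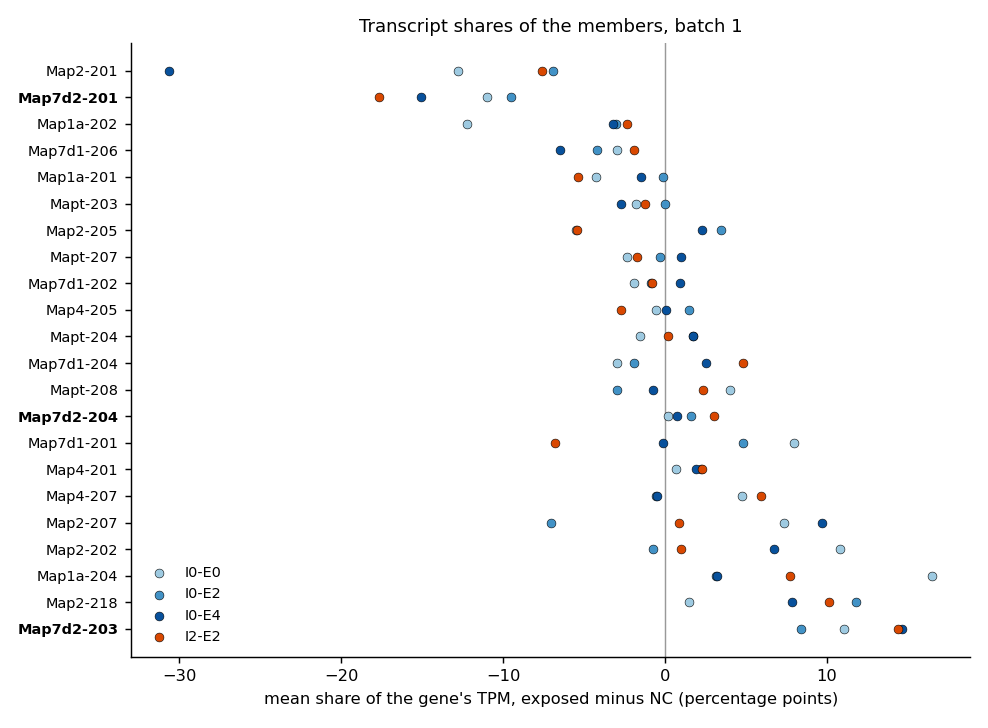
Difference in mean transcript share between each exposed group of batch 1 and NC, in percentage points of the gene's TPM, for the named transcripts of the genes with several transcripts, ordered by the mean over all 12 exposed libraries. Map7d2-201 (-17.6 to -9.49 points) and Map7d2-203 (8.39 to 14.6 points) were the pair whose libraries did not overlap with NC in any exposed group, whereas Map2-201 reached -30.6 points in I0-E4 and overlapped in other groups.

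Other genes of microtubule control were read as lists of 57 genes in all. These were 7 kinesin-1 chains, the motor that MAP7 proteins recruit, 19 other lattice-binding proteins, 10 plus-end proteins, 13 severing or destabilising proteins and 8 kinases of the MARK, GSK3 and CDK5 families or their activator, which phosphorylate tau and its relatives. Of the 51 tested in batch 1 and 52 in batch 2, 0 rose and 0 fell in any comparison in edgeR's quasi-likelihood test, against a background of 0% of all genes. Their median log2 fold change lay between -0.02 and 0.01 in the contrasts with NC.

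The genes furthest from 0 in these lists, among those at a mean of at least 10 CPM, are named as a description. Fign, which encodes a microtubule-severing enzyme of the fidgetin family, had the lowest log2 fold change in I0-E2 (-0.36, adjusted p = 0.993) and in I0-E4 (-0.45, adjusted p = 0.613), and its relative Fignl1 had the lowest in I2-E2 (-0.20, adjusted p = 0.607), all by edgeR's quasi-likelihood test. The highest were Klc2, a kinesin light chain, in I0-E0 (0.16), Clip2, a plus-end protein, in I0-E2 (0.21), and the stathmins Stmn3 in I0-E4 (0.24) and Stmn1 in I2-E2 (0.22), which sequester tubulin. In I3-E3-SRS the plus-end protein Slain1 was lowest at -0.45 and Stmn4 highest at 0.17, and Stmn4 had been lowest in I0-E0 at -0.20. In I2-E2 against I0-E2 the kinase Mark4 was highest at 0.24 and Fignl1 lowest at -0.13.

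Over the 15 libraries of batch 1, the genes whose log2 CPM most resembled that of the Map7d2 gene sum, among 9078 genes compared, were Tardbp (Pearson r = 0.93), which encodes the RNA-binding protein TDP-43, Pcnp (0.87), Blmh (0.87), Ccdc34 (0.86) and Rpl35 (0.86), a ribosomal protein gene. These values describe 15 libraries in 5 groups that share batch and depth differences, and the 5 genes were the highest of many.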

How the data were processed

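RNA of N2A cells was sequenced in 20 libraries, and the authors quantified transcripts with Salmon and deposited estimated counts, TPM and effective lengths for 107368 transcripts per library. The version of Salmon, its transcript release and the build were not given in the sources used here. Transcripts were assigned to genes by ID with GENCODE vM21 (GRCm38), which matched 98.6%. The unmatched ones held 0.664% to 0.748% of the estimated counts and were left out. Gene sums were rounded, filtered with filterByExpr (minimum count 10), TMM-scaled and tested per batch with edgeR 4.0.16 (quasi-likelihood, all groups of a batch in 1 fit) in R 4.3.3, at an adjusted p of 0.05. This left 12289 and 12052 genes. Transcript usage was tested with diffSpliceDGE, with limma 3.58.1 diffSplice as an alternative. On simulated data diffSpliceDGE made more false calls than its threshold allows. Its calls on all libraries are therefore given with shares and with limma's result, which was not run with a library left out. Both usage tests missed most changes, so a usage test without a call says little. Shares, on deposited TPM, were compared by exact permutation of libraries (scipy 1.17.1). Intervals and the floor (3 counts) cover counting error only. Named genes were all 10 genes, Map7d2 transcripts at 5% or more of mean share and others at 10% or more in any group, the highest and lowest list genes at 10 CPM or more per comparison, and the 5 genes most correlated with Map7d2. Osgepl1-203 was named after its value was seen. The genes and lists were chosen with earlier results of these data known. Replicate numbers did not pair the libraries (mean correlation -0.02 over 30 same-numbered pairs in batch 1). Alternatives were DESeq2 1.42.0, limma-voom, other scaling, no filter, gene TPM with a pseudocount of 0.5, only the groups compared, a replicate block, shares of counts and each library left out.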

Additional observations from a re-analysis of the deposited data

How the results depend on the processing

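None of the 42 log2 fold changes of the 7 genes was called under any of 532 alternative values, which ranged from -0.44 to 0.57, and 64 of these had the other sign, none with a main value beyond 0.14. The number of all genes called, 0 in each comparison, became 110, 46, 172, 160, 194 and 125 (I0-E0, I0-E2, I0-E4, I2-E2 and I3-E3-SRS against NC, and I2-E2 against I0-E2) without a filter on low counts. It became 1, 1, 15 and 3 with DESeq2 in I0-E0, I0-E4, I3-E3-SRS and I2-E2 against I0-E2, 1 with gene TPM in I3-E3-SRS, 2 with only the groups compared in I2-E2 against I0-E2, and 6 with the replicate block in I3-E3-SRS. Leaving out a library gave 0 to 1 in I0-E0, I0-E2 and I0-E4, 0 to 2 in I2-E2 and 0 to 671 in I3-E3-SRS, the last without batch 2 NC replicate 2, where a single NC library is left and is assumed to vary like the other group.

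Genes with changed transcript usage numbered 4, 3, 26, 30, 146 and 21 in the same order. Without a filter they numbered 0, 3, 9, 16 and 6 from I0-E2 onwards and 3 in I0-E0, with limma diffSplice 1, 4, 1, 12, 0 and 20, and with the replicate block 2, 1, 26, 19, 0 and 15. Leaving out a library gave 3 to 17 in I0-E0, 1 to 13 in I0-E2, 18 to 55 in I0-E4, 19 to 56 in I2-E2, 10 to 3566 in I3-E3-SRS (the highest without batch 2 NC replicate 2) and 15 to 46 in I2-E2 against I0-E2. Leaving out a batch 2 NC library left a single one, so no usage call of the 10 genes is read from that setting. As a share of estimated counts, Map7d2-201 differed by -11.5 points in I0-E2, -18.1 in I0-E4, -20.9 in I2-E2 and -9.46 in I2-E2 against I0-E2, and by -13.4 in I0-E0. Leaving out a library moved its difference from NC to -13.2 to -9.50 points in I0-E0, -10.1 to -8.80 in I0-E2, -15.5 to -14.7 in I0-E4, -18.1 to -17.3 in I2-E2 and -1.14 to 5.44 in I3-E3-SRS, and from I0-E2 to I2-E2 to -8.84 to -7.55. The cause of these changes was not tested. Map7, Map7d3 and Dcx had at most 9 reads in any library, and several transcript shares rested on few reads. The part of depth in this was not tested. The 2 against 3 libraries of batch 2 allow no exact two-sided permutation p below 0.2.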
